A study of Mus musculus with 23 samples.

Results

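T cell and intraepithelial lymphocyte genes were followed in whole jejunum of Cpa3Cre/+ and Cpa3+/+ mice by bulk RNA sequencing. The set was a list of 35 gene symbols, 35 of which were found among the 55487 Ensembl genes of the count table. It was divided into 19 intraepithelial cytotoxic genes and 16 general T cell genes. The first division held the coreceptor genes Cd8a and Cd8b1, the gamma delta receptor gene Trdc, the residence and natural killer type receptor genes Itgae, Ccr9, Cd160, Cd7, Il2rb, Klrd1 and Klre1, the effector genes Gzma, Gzmb, Prf1, Nkg7, Fasl, Ccl5 and Xcl1, and the transcription factor genes Tbx21 and Runx3. The second held Cd3e, Cd3d, Cd3g, Cd247, Trac, Trbc1, Trbc2, Cd4, Cd2, Cd5, Lck, Zap70, Lat, Thy1, Gata3 and Foxp3. Of the 35 genes, 34 passed the filter on low counts and were tested, among 17236 genes in all. Klre1, a lectin-like receptor gene of natural killer cells, held 45 reads over all libraries and was not tested.

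The 23 libraries comprised 11 from Cpa3Cre/+ mice, which the labels call mast cell-deficient, and 12 from Cpa3+/+ (wild type) mice. The Cpa3Cre allele places Cre recombinase under the promoter of the mast cell carboxypeptidase A3 gene, which is known to be active in mast cells, basophils and some blood progenitors. Naive mice were untreated. Immunized mice had received 25 µg ovalbumin and 2 mg alum by intraperitoneal injection on days 0 and 14. Challenged mice had been immunized in the same way and from day 20 could choose between 2 bottles, plain water or water containing 20% egg white and 8% sugar, for 1, 3 or 5 days. The Cpa3Cre/+ libraries numbered 3 on day 5 and 2 in every other state. Cpa3+/+ mice contributed 3 to the naive and the day 1 state and 2 to each of the others. The libraries were from 18 females and 5 males, and 4 of the males were Cpa3Cre/+. The labels give neither age nor strain background. Tissue was taken without fat and Peyer's patches, per the labels' protocols.

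Intraepithelial lymphocytes sit between the epithelial cells of the gut. Many of them carry the CD8 alpha homodimer, a gamma delta T cell receptor and the integrin alpha E chain, which binds E-cadherin on enterocytes, and they store granzymes and perforin. T helper cells and regulatory T cells lie mostly in the lamina propria below and carry CD4. All of these cells except natural killer type lymphocytes signal through the CD3 chains, the kinases LCK and ZAP70 and the adaptor LAT. In a bulk sample, fewer cells of a type and less RNA per cell cannot be told apart.

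Promoter sequences are shown for 4 genes that stand for the divisions, the granzyme genes Gzma and Gzmb on one side and the CD3 chain genes Cd3d and Cd3g on the other. They were taken from RefSeq on GRCm38.p6 and run from 250 bases before the start that RefSeq gives for the gene to 50 bases after it, 5′ to 3′ on the strand of the gene. For Gzmb this start lies upstream of the one in the GENCODE annotation of the same build, so that the whole window lies upstream of the GENCODE gene. The windows are chr13:113100932-113101231 (minus strand) for Gzma, chr14:56262285-56262584 (minus) for Gzmb, chr9:44981536-44981835 (plus) for Cd3d and chr9:44980382-44980681 (minus) for Cd3g. Capitals mark the letters TGTGGT, part of the core recognised by RUNX factors, and AGGTGT, part of the core recognised by T-box factors such as T-bet, and their reverse complements ACCACA and ACACCT.
Gzma: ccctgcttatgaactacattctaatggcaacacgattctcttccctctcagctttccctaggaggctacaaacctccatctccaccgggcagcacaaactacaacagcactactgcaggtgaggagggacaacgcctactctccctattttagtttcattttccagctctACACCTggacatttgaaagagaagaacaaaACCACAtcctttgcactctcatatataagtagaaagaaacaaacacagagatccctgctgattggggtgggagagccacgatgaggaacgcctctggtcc
Gzmb: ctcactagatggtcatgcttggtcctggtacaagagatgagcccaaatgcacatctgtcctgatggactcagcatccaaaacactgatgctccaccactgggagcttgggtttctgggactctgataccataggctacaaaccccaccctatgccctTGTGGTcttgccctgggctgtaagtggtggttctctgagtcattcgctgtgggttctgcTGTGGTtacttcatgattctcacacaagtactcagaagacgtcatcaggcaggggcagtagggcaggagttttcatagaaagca
Cd3d: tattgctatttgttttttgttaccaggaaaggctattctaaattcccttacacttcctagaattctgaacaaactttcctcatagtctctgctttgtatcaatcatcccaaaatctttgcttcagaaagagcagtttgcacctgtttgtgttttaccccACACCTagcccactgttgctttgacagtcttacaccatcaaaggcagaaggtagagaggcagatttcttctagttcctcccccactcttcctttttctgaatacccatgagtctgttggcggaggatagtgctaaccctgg
Cd3g: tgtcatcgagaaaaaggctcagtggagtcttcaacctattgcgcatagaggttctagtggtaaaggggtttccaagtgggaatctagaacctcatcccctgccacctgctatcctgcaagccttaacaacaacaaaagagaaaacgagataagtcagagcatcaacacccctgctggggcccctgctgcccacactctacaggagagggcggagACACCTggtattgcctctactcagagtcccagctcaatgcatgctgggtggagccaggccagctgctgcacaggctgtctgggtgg

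The Gzma window held 1 match to each of the motifs, the Gzmb window 2 matches to the RUNX-like letters, and the Cd3d and Cd3g windows 1 match each to the T-box-like letters. Promoters were on hand for 22 of the 35 genes. The RUNX-like letters were in at least 1 promoter of 8 of 12 intraepithelial cytotoxic genes and 3 of 10 general T cell genes, and in 16.8% of all 32851 promoters. The T-box-like letters were in at least 1 promoter of 3 of 12 and 4 of 10 genes, and in 13.7% of all promoters. The members were counted by gene, where any of several promoters could hold the letters, and the background by promoter, so these shares are not like for like. A match is a run of letters and not a site of binding.

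The libraries and the checks on them can be given briefly. Total counts ran from 5.476 M to 19.34 M reads per library (megareads), with a median of 13.81 M, and the 35 genes together held 0.0212% of all reads. Levels are given as CPM, reads per M reads of the TMM-scaled library total. Cpa3, the targeted gene, had 1.07 and 0.101 CPM in naive, 0.291 and 0.153 in immunized, 0.62 and 0.22 in day 1, 0.97 and 0.697 in day 3 and 1.34, 1.51 and 1.51 in day 5 Cpa3Cre/+ libraries. In Cpa3+/+ libraries Cpa3 had 0.826, 0.965 and 1.83 CPM when naive, 2.41 and 4.05 when immunized, 1.85, 5.68 and 6.47 on day 1, 17.2 and 13.1 on day 3 and 4.02 and 22.1 on day 5. The genotypes did not overlap in any state but the naive one, where a Cpa3Cre/+ library at 1.07 CPM lay among the Cpa3+/+ libraries. Of the 6 defining T cell markers, Cd3e, Cd3d, Cd3g, Trac and Lck had reads in every library, and Cd2 was at 0 in 1.

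Several libraries stood apart in ways that the groups do not share. Summed over 14 B cell follicle marker genes, Cpa3Cre/+ immunized replicate 2 had 171 CPM, Cpa3Cre/+ day 1 replicate 2 had 105 CPM and Cpa3+/+ immunized replicate 1 had 199 CPM, while the other 20 libraries had at most 58.9 CPM. Marker genes at 0 in some libraries included Pax5, Fcer2a, Cxcr5 and Blk. Summed over 8 smooth muscle marker genes, Cpa3Cre/+ naive replicate 1 had 5997 CPM, and the others had 637 to 3809 CPM. That library was also the lowest in 8 epithelial marker genes, with 5246 CPM where the others had 9867 to 25065 CPM. Both immunized groups thus held 1 library with high follicle markers among 2. Summed natural killer and innate lymphoid marker genes, 12 in all, ran from 88.0 to 228 CPM, and Klrb1c, Eomes, Il22, Il5 and Il13 were at 0 in some libraries. The highest of these sums was that of Cpa3+/+ day 1 replicate 2, which was also the library farthest out on the third principal component and the lowest of all in 5 of the 35 genes, and which enters every Cpa3+/+ day 1 value.

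Per kb of exon sequence, which allows genes to be set beside each other, Gzma, Gzmb, Cd7 and Ccl5 had the highest levels. Gzma, which encodes the serine protease granzyme A, averaged 43.6 CPM per kb over the 23 libraries, and Gzmb, which encodes granzyme B, averaged 14.4. They were followed by Cd7, a surface glycoprotein gene, at 11.7 CPM per kb, the chemokine gene Ccl5 at 9.7, and the T cell receptor beta constant genes Trbc2 at 6.48 and Trbc1 at 4.29. Cd4 averaged 3.16 CPM per kb, Cd8a 3.03, Trac 2.5 and Trdc 1.08. The beta chain of CD8 was rarer, with 0.567 CPM per kb for Cd8b1. The lowest levels were those of Cd247 at 0.152, Foxp3 at 0.102, Cd5 at 0.0927 and Klre1 at 0.0417 CPM per kb. Neighbours in this order had overlapping ranges over the libraries throughout, as the plot of levels per kb shows.

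**Figure D1:**
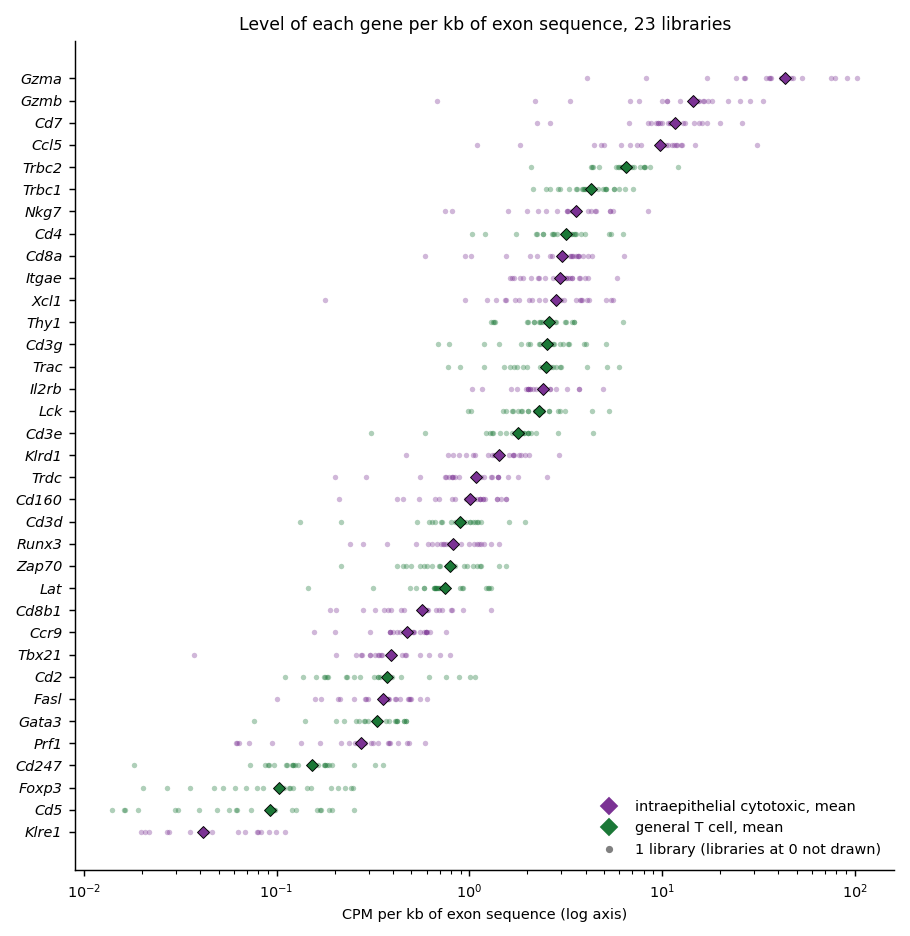
Level of each of the 35 genes in CPM per kb of exon sequence on a log axis, with 1 dot for each library and a diamond for the mean of 23 libraries; purple marks intraepithelial cytotoxic and green general T cell genes. Gzma has the highest mean at 43.6 CPM per kb and Klre1 the lowest at 0.0417, and the ranges of neighbouring genes overlap.

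The effector genes varied widely from library to library. Here and below, overlap between genotypes or its absence describes groups of 2 or 3 libraries. Groups so small can separate without a genotype difference, and the share of all genes that separate is not given here. Gzma had 4.09 and 47.0 CPM in naive Cpa3Cre/+ libraries, 53.2 and 103 when immunized, 36.0 and 27.2 on day 1, 37.1 and 42.2 on day 3 and 45.2, 43.3 and 91.3 on day 5. Cpa3+/+ libraries held Gzma at 17.2, 41.7 and 75.3 CPM when naive, 34.6 and 26.7 when immunized, 79.3, 44.6 and 36.3 on day 1, 47.8 and 42.4 on day 3 and 8.28 and 24.4 on day 5. Cpa3Cre/+ naive replicate 1 was the lowest of all libraries and Cpa3Cre/+ immunized replicate 2 the highest. The Cpa3Cre/+ libraries lay above those of Cpa3+/+ when immunized and on day 5 and below them on days 1 and 3, and the naive groups overlapped. The nearest values on day 1 were practically equal, 36.0 CPM in Cpa3Cre/+ and 36.3 in Cpa3+/+. So were those on day 3, 42.2 CPM in Cpa3Cre/+ and 42.4 in Cpa3+/+. Gzmb had 0.974 and 23.7 CPM in naive Cpa3Cre/+ libraries, 26.1 and 47.7 when immunized, 20.8 and 14.2 on day 1, 17.8 and 21.2 on day 3 and 24.7, 21.2 and 31.5 on day 5. Cpa3+/+ libraries held Gzmb at 9.75, 15.1 and 41.0 CPM when naive, 21.4 and 10.9 when immunized, 36.5, 4.75 and 22.01 on day 1, 23.2 and 22.2 on day 3 and 3.14 and 15.1 on day 5. The same libraries were at the extremes. The Cpa3Cre/+ libraries were above those of Cpa3+/+ when immunized and on day 5 and below them on day 3, and the other groups overlapped. Ccl5 had 1.75 and 9.25 CPM in naive Cpa3Cre/+ libraries, 11.5 and 29.6 when immunized, 10.8 and 11.4 on day 1, 6.52 and 7.46 on day 3 and 5.87, 4.6 and 12.1 on day 5. Cpa3+/+ libraries held Ccl5 at 4.79, 10.2 and 9.33 CPM when naive, 10.004 and 7.13 when immunized, 14.1, 11.1 and 9.52 on day 1, 12.1 and 9.65 on day 3 and 1.05 and 4.27 on day 5. CCL5 is a chemokine stored and released by memory and cytotoxic T cells, and its gene was lowest in Cpa3+/+ day 5 replicate 1 and highest in Cpa3Cre/+ immunized replicate 2. Its groups were placed like those of Gzmb. The other effector genes were lower. Nkg7, which encodes a granule membrane protein, ran from 0.681 to 7.71 CPM, and Xcl1, a chemokine gene that draws cross-presenting dendritic cells, from 0.0931 to 2.92 CPM. Prf1, which encodes the pore former perforin, ran from 0.16 to 1.53 CPM and the death ligand gene Fasl from 0.195 to 1.16 CPM.

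Genes of residence in the epithelium included Itgae, Il2rb and Ccr9. Itgae had 7.4 and 7.64 CPM in naive Cpa3Cre/+ libraries, 16.9 and 26.7 when immunized, 15.6 and 14.5 on day 1, 7.76 and 10.5 on day 3 and 13.5, 11.3 and 8.37 on day 5. Cpa3+/+ libraries held Itgae at 10.4, 14.6 and 18.8 CPM when naive, 15.6 and 15.2 when immunized, 17.1, 9.5 and 18.1 on day 1, 14.9 and 14.1 on day 3 and 8.68 and 12.4 on day 5. Itgae, the integrin alpha E gene, was lowest in the naive Cpa3Cre/+ libraries, both of which lay below all naive Cpa3+/+ libraries. The Cpa3Cre/+ libraries were above when immunized and below on day 3, with overlap on days 1 and 5. Il2rb had 4.97 and 8.65 CPM in naive Cpa3Cre/+ libraries, 12.002 and 21.1 when immunized, 13.8 and 11.2 on day 1, 7.0003 and 10.4 on day 3 and 9.52, 7.54 and 8.47 on day 5. Cpa3+/+ libraries held Il2rb at 8.59, 10.3 and 15.8 CPM when naive, 8.83 and 8.67 when immunized, 15.9, 9.96 and 11.2 on day 1, 10.5 and 8.85 on day 3 and 4.42 and 9.21 on day 5. This is the gene of the beta chain shared by the receptors of interleukin 2 and interleukin 15. It was highest in Cpa3Cre/+ immunized replicate 2, and only the immunized groups did not overlap. Ccr9 had 6.13 and 1.61 CPM in naive Cpa3Cre/+ libraries, 7.71 and 5.27 when immunized, 5.21 and 5.21 on day 1, 3.12 and 4.83 on day 3 and 4.91, 5.95 and 2.07 on day 5. Cpa3+/+ libraries held Ccr9 at 3.96, 5.11 and 3.99 CPM when naive, 6.42 and 6.08 when immunized, 4.31, 4.47 and 5.71 on day 1, 3.95 and 4.14 on day 3 and 6.19 and 6.07 on day 5. CCR9 directs lymphocytes to the small intestine along the chemokine CCL25, and its gene was lower in all Cpa3Cre/+ than in all Cpa3+/+ day 5 libraries, with overlap in the other states. The exons of Ccr9, with 1470 reads over all libraries, overlap an antisense transcript with 29 reads by 1932 bases. They also overlap those of Slc6a20a, with 124572 reads, by 22 bases on the opposite strand. Cd160, the gene of a receptor for the herpesvirus entry mediator, ran from 0.559 to 4.07 CPM, and Klrd1, the CD94 gene, from 0.603 to 3.72 CPM. Cd160, with 794 reads over all libraries, shares 68 exon bases with Pdzk1 on the opposite strand, which had 90033 reads.

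Receptor chain genes showed the makeup of the T cell pool. Cd3g had 2.24 and 8.95 CPM in naive Cpa3Cre/+ libraries, 9.67 and 16.6 when immunized, 8.49 and 6.61 on day 1, 6.03 and 8.71 on day 3 and 10.8, 7.46 and 12.8 on day 5. Cpa3+/+ libraries held Cd3g at 4.63, 8.01 and 8.85 CPM when naive, 9.94 and 6.72 when immunized, 13.1, 3.91 and 8.53 on day 1, 10.6 and 7.62 on day 3 and 2.57 and 8.01 on day 5. Cd3g encodes the CD3 gamma chain, and the genotypes overlapped in every state. Cd3e had 1.27 and 5.23 CPM in naive Cpa3Cre/+ libraries, 7.78 and 17.8 when immunized, 8.18 and 8.22 on day 1, 5.34 and 7.36 on day 3 and 7.66, 5.87 and 7.81 on day 5. Cpa3+/+ libraries held Cd3e at 6.28, 6.75 and 8.53 CPM when naive, 9.04 and 4.94 when immunized, 11.8, 5.4 and 7.62 on day 1, 8.25 and 7.47 on day 3 and 2.41 and 7.54 on day 5. For the epsilon chain gene Cd3e the Cpa3Cre/+ libraries were lower when naive and on day 3. Both CD3 chain genes were lowest in Cpa3Cre/+ naive replicate 1 and highest in Cpa3Cre/+ immunized replicate 2. Trbc2 had 3.99 and 4.52 CPM in naive Cpa3Cre/+ libraries, 4.8 and 8.39 when immunized, 4.34 and 5.58 on day 1, 3.26 and 4.08 on day 3 and 4.24, 4.92 and 4.7 on day 5. Cpa3+/+ libraries held Trbc2 at 4.13, 5.31 and 3.03 CPM when naive, 6.003 and 2.997 when immunized, 5.54, 4.28 and 2.97 on day 1, 4.37 and 4.57 on day 3 and 1.45 and 5.61 on day 5. Naive, immunized, day 1 and day 5 groups overlapped between genotypes, and on day 3 the Cpa3Cre/+ libraries were lower. Trac had 1.85 and 1.41 CPM in naive Cpa3Cre/+ libraries, 2.62 and 5.57 when immunized, 2.17 and 2.42 on day 1, 1.11 and 2.29 on day 3 and 2.53, 2.38 and 1.6 on day 5. Cpa3+/+ libraries held Trac at 2.48, 1.64 and 2.79 CPM when naive, 4.83 and 1.78 when immunized, 2.77, 0.838 and 1.52 on day 1, 2.29 and 2.32 on day 3 and 0.724 and 3.8 on day 5. Trac encodes the constant region of the alpha chain of conventional T cells, and it was highest in Cpa3Cre/+ immunized replicate 2 and then in Cpa3+/+ immunized replicate 1. Only on day 3 did the genotypes not overlap, and there the nearest values were practically equal, 2.2885 CPM in Cpa3Cre/+ and 2.2887 CPM in Cpa3+/+. Trdc had 0.779 and 5.43 CPM in naive Cpa3Cre/+ libraries, 5.46 and 9.77 when immunized, 5.02 and 3.01 on day 1, 3.12 and 4.43 on day 3 and 5.43, 2.94 and 5.08 on day 5. Cpa3+/+ libraries held Trdc at 2.15, 4.24 and 6.14 CPM when naive, 4.14 and 3.24 when immunized, 6.92, 3.17 and 3.43 on day 1, 4.58 and 3.12 on day 3 and 1.13 and 2.87 on day 5. Trdc, the delta constant region gene of gamma delta T cells, was above the Cpa3+/+ libraries in the immunized and day 5 Cpa3Cre/+ libraries and overlapped in the other states. Per kb, the ratio of Trdc to Trac ran from 0.102 to 0.933, so that Trac exceeded Trdc per kb in every library. This order rests on the annotated exon lengths, 3865 bases for Trdc and 935 for Trac. In CPM, Trdc had the higher mean over the libraries, 4.16 against 2.34. Cd3d ran from 0.241 to 3.51 CPM, Cd247 from 0.0974 to 1.91 CPM and Trbc1 from 1.61 to 5.26 CPM. Cd247, the CD3 zeta gene, shares 3007 exon bases with Pou2f1 on the opposite strand, and since the strand setting of the counting is not known, reads of the pair cannot be told apart. Trbc1 and Trbc2 are near-identical copies, and reads may have been divided between them or lost.

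Coreceptor genes split the libraries differently. Cd8a had 2.14 and 10.6 CPM in naive Cpa3Cre/+ libraries, 15.1 and 22.97 when immunized, 12.5 and 9.76 on day 1, 9.56 and 11.3 on day 3 and 13.3, 11.2 and 14.1 on day 5. Cpa3+/+ libraries held Cd8a at 5.62, 12.3 and 13.5 CPM when naive, 12.3 and 8.1 when immunized, 15.8, 3.72 and 13.3 on day 1, 12.97 and 12.1 on day 3 and 3.46 and 7.47 on day 5. Cd8a had its lowest value in Cpa3Cre/+ naive replicate 1 and its highest in Cpa3Cre/+ immunized replicate 2. As for Gzmb, the Cpa3Cre/+ libraries were above when immunized and on day 5 and below on day 3. Cd4 had 14.02 and 4.83 CPM in naive Cpa3Cre/+ libraries, 9.75 and 15.3 when immunized, 16.1 and 21.9 on day 1, 7.07 and 11.4 on day 3 and 14.3, 13.5 and 4.14 on day 5. Cpa3+/+ libraries held Cd4 at 8.92, 12.4 and 10.8 CPM when naive, 25.3 and 12.8 when immunized, 14.4, 10.99 and 13.7 on day 1, 11.1 and 9.72 on day 3 and 9.004 and 21.4 on day 5. Cd4, which macrophages also express at low level, was lowest in Cpa3Cre/+ day 5 replicate 3 and highest in Cpa3+/+ immunized replicate 1, and the Cpa3Cre/+ libraries were higher on day 1, with overlap elsewhere. The ratio of Cd8a to Cd4 per kb ran from 0.169 in Cpa3Cre/+ naive replicate 1 to 3.78 in Cpa3Cre/+ day 5 replicate 3, the libraries with the lowest and the highest epithelial markers. Lck had 5.26 and 4.93 CPM in naive Cpa3Cre/+ libraries, 7.57 and 15.5 when immunized, 6.94 and 8.44 on day 1, 4.51 and 5.87 on day 3 and 6.47, 4.36 and 6.4 on day 5. Cpa3+/+ libraries held Lck at 8.59, 5.88 and 7.58 CPM when naive, 12.6 and 4.86 when immunized, 9.15, 2.89 and 5.41 on day 1, 7.07 and 6.75 on day 3 and 2.97 and 5.47 on day 5. Lck encodes the kinase that starts T cell receptor signalling, and its highest libraries were the pair of immunized ones with high follicle markers. The Cpa3Cre/+ libraries were lower when naive and on day 3. Zap70 ran from 0.643 to 4.66 CPM, Lat from 0.402 to 3.6 CPM and Cd8b1 from 0.279 to 1.91 CPM.

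Surface glycoprotein genes of T cells behaved unlike each other. Cd7 had 2.53 and 14.8 CPM in naive Cpa3Cre/+ libraries, 16.6 and 29.3 when immunized, 14.4 and 13.4 on day 1, 10.5 and 11.3 on day 3 and 10.8, 9.52 and 19.4 on day 5. Cpa3+/+ libraries held Cd7 at 7.6, 10.7 and 18.3 CPM when naive, 13.6 and 11.02 when immunized, 22.6, 12.4 and 12.5 on day 1, 17.5 and 12.2 on day 3 and 2.97 and 9.94 on day 5. Its lowest and highest libraries were those of the granzyme genes, and the Cpa3Cre/+ libraries were above when immunized and below on day 3. Thy1 had 18.8 and 7.04 CPM in naive Cpa3Cre/+ libraries, 6.47 and 7.78 when immunized, 6.88 and 9.32 on day 1, 9.5 and 7.71 on day 3 and 8.33, 4.05 and 3.86 on day 5. Cpa3+/+ libraries held Thy1 at 8.42, 5.98 and 3.99 CPM when naive, 10.5 and 7.21 when immunized, 6.996, 4.004 and 6.02 on day 1, 7.98 and 10.2 on day 3 and 6.51 and 10.5 on day 5. Thy1, which is also expressed by fibroblasts and neurons, was highest in Cpa3Cre/+ naive replicate 1, the library with the most smooth muscle marker signal, and the genotypes overlapped in every state. Cd2 had 0.584 and 0.402 CPM in naive Cpa3Cre/+ libraries, 0.436 and 1.76 when immunized, 0.31 and 1.54 on day 1, 0.277 and 0.398 on day 3 and 0.595, 0.238 and 0.47 on day 5. Cpa3+/+ libraries held Cd2 at 1.32, 0.193 and 0.319 CPM when naive, 1.86 and 0 when immunized, 0.769, 0.559 and 0.305 on day 1, 0.694 and 0.581 on day 3 and 0.322 and 1.07 on day 5. Cd2, an adhesion receptor gene, was listed at 0 in Cpa3+/+ immunized replicate 2 and was highest in the other Cpa3+/+ immunized library, and the Cpa3Cre/+ libraries were lower on day 3. Cd5, which encodes an inhibitory coreceptor, ran from 0.0693 to 1.24 CPM and was likewise highest in Cpa3+/+ immunized replicate 1.

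Transcription factor genes were low throughout. Runx3 had 3.7 and 1.21 CPM in naive Cpa3Cre/+ libraries, 4.07 and 5.49 when immunized, 5.77 and 5.95 on day 1, 1.87 and 3.93 on day 3 and 4.02, 3.41 and 1.41 on day 5. Cpa3+/+ libraries held Runx3 at 3.8, 3.57 and 3.19 CPM when naive, 6.49 and 3.65 when immunized, 4.997, 5.59 and 5.26 on day 1, 3.05 and 4.5 on day 3 and 2.65 and 7.14 on day 5. RUNX3 is required for the CD8 lineage, and its gene was highest in Cpa3+/+ day 5 replicate 2 and lowest in Cpa3Cre/+ naive replicate 2, with higher Cpa3Cre/+ values on day 1 and overlap elsewhere. Tbx21 had 1.75 and 0.503 CPM in naive Cpa3Cre/+ libraries, 0.873 and 1.53 when immunized, 0.682 and 1.98 on day 1, 0.693 and 0.995 on day 3 and 1.12, 0.952 and 0.847 on day 5. Cpa3+/+ libraries held Tbx21 at 1.16, 0.868 and 0.957 CPM when naive, 0.759 and 0.972 when immunized, 1.38, 0.0931 and 0.762 on day 1, 0.832 and 1.16 on day 3 and 0.643 and 0.801 on day 5. Tbx21 encodes T-bet, the factor of type 1 and cytotoxic lymphocytes, and on day 5 it was higher in all Cpa3Cre/+ than in all Cpa3+/+ libraries. Gata3 had 1.66 and 0.302 CPM in naive Cpa3Cre/+ libraries, 1.31 and 1.68 when immunized, 1.3 and 1.47 on day 1, 1.178 and 1.64 on day 3 and 1.86, 1.82 and 1.13 on day 5. Cpa3+/+ libraries held Gata3 at 1.82, 1.06 and 0.558 CPM when naive, 1.52 and 0.891 when immunized, 1.31, 1.02 and 1.14 on day 1, 1.87 and 1.31 on day 3 and 0.804 and 1.67 on day 5. Gata3, the type 2 factor gene, overlapped between genotypes in every state. Foxp3 had 0.389 and 0 CPM in naive Cpa3Cre/+ libraries, 0.364 and 0.687 when immunized, 0.124 and 0.881 on day 1, 0.554 and 0.498 on day 3 and 1.12, 0.952 and 0 on day 5. Cpa3+/+ libraries held Foxp3 at 0.661, 0 and 0.319 CPM when naive, 1.03 and 0.162 when immunized, 0.538, 0.0931 and 0.533 on day 1, 0.277 and 0.218 on day 3 and 0.241 and 1.13 on day 5. Foxp3, the regulatory T cell factor gene, was at 0 in 3 libraries and higher in Cpa3Cre/+ libraries on day 3. Its exons overlap those of Ccdc22 on the opposite strand by 590 bases and those of Flicr on the same strand by 853 bases.

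Summed over each division, the intraepithelial cytotoxic genes ranged more widely than the general T cell genes. The sums are of CPM, so the genes with most reads weigh most. These were Gzma and Gzmb in the first division, with means of 43.8 and 20.7 CPM, and Cd4 in the second, with 12.7. The 19 genes summed to 43.6 and 140 CPM in naive, 186 and 322 in immunized, 154 and 133 in day 1, 113 and 141 in day 3, and 152, 132 and 209 in day 5 Cpa3Cre/+ libraries. Their sums in Cpa3+/+ libraries were 81.9, 139.7 and 217 CPM when naive, 146 and 111 when immunized, 236, 116 and 150.0 on day 1, 165 and 148 on day 3, and 48.6 and 109 on day 5. The groups overlapped when naive and on day 1, the Cpa3Cre/+ sums lay above the Cpa3+/+ sums when immunized and on day 5, and below them on day 3. The 16 general T cell genes summed to 31.6 to 110 CPM, with the highest value in Cpa3Cre/+ immunized replicate 2 and the lowest in Cpa3+/+ day 5 replicate 1. The intraepithelial cytotoxic genes made up 41.7% to 79.8% of the summed CPM of the set, with the lowest share in Cpa3Cre/+ naive replicate 1. Of the 35 genes, 17 were highest in Cpa3Cre/+ immunized replicate 2, and 11 were lowest in Cpa3Cre/+ naive replicate 1 and 7 in Cpa3+/+ day 5 replicate 1.

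**Figure D2:**
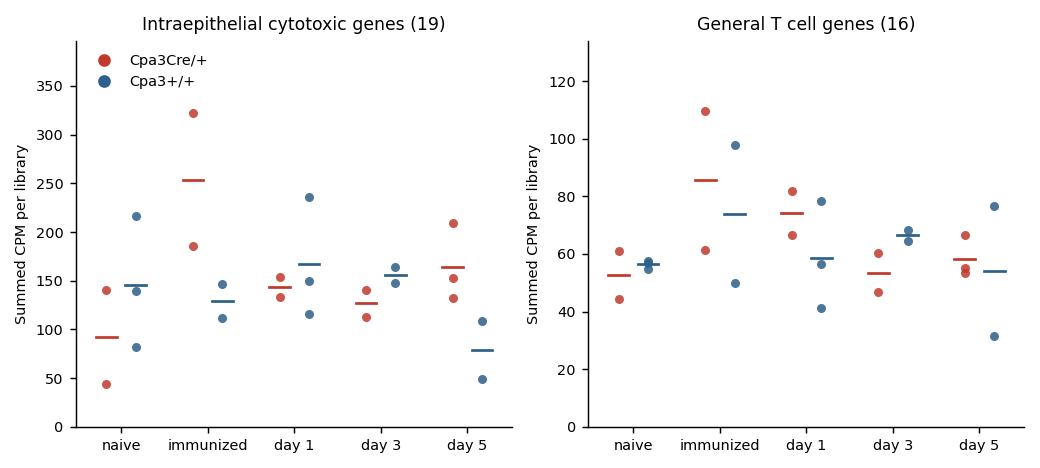
Summed CPM of the 19 intraepithelial cytotoxic genes and of the 16 general T cell genes in each library, by state, with Cpa3Cre/+ in red and Cpa3+/+ in blue; dots are libraries and bars are group means. The cytotoxic sums reach from 43.6 CPM in a naive to 322 CPM in an immunized Cpa3Cre/+ library, and the general T cell sums stay between 31.6 and 110 CPM.

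Relations between genes were examined across the 23 libraries on the scale of log2(CPM + 0.5). The 8 pairs of genes were chosen after their values were seen. Their permutation p-values (100000 permutations, two-sided, adjusted over the 8 pairs) are therefore not tests of relations fixed in advance and add no support. The permutations also exchanged libraries freely across the 10 groups. The value in brackets after a rho is its adjusted permutation p. Cd8a and Gzmb had a Pearson r of 0.965 (adjusted permutation p = 0.00002) and a Spearman rho of 0.906 (adjusted permutation p = 0.00002667), and r was 0.929 without the 2 libraries farthest from the median of Cd8a. Cd8a and Trdc had an r of 0.891 (adjusted permutation p = 0.00002) and a rho of 0.871 (0.00002667), and r was 0.761 without 2 libraries. Gzma and Gzmb gave an r of 0.8999 (adjusted permutation p = 0.000032) and a rho of 0.866 (0.00002667), with an r of 0.714 without 2 libraries. For Cd3e and Cd8a the r was 0.875 (adjusted permutation p = 0.00002), the rho 0.797 (0.00004) and the r without 2 libraries 0.703. Cd3d and Cd3g had an r of 0.893 (adjusted permutation p = 0.00002), a rho of 0.722 (0.000128) and an r of 0.767 without 2 libraries. Unadjusted, 0.00001 is the smallest p that these permutations can give.

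Cd3e and Cd4 were related less closely, with an r of 0.219 (adjusted permutation p = 0.3041), a rho of 0.447 (0.03439) and an r of 0.385 without 2 libraries. Cd4 and C1qa, a macrophage complement gene, had an r of 0.594 (adjusted permutation p = 0.00352) and a rho of 0.483 (0.02387), and r was 0.393 without 2 libraries. Thy1 and Myh11, the smooth muscle myosin gene, had an r of 0.740 (adjusted permutation p = 0.00006667) and a rho of 0.644 (0.001747), and an r of 0.561 without 2 libraries. After the group means were removed, r was 0.957 for Cd8a and Gzmb, 0.126 for Cd3e and Cd4, and 0.790 for Thy1 and Myh11. All pairs share library and depth, and the pairs of T cell genes share their cells.

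**Figure D3:**
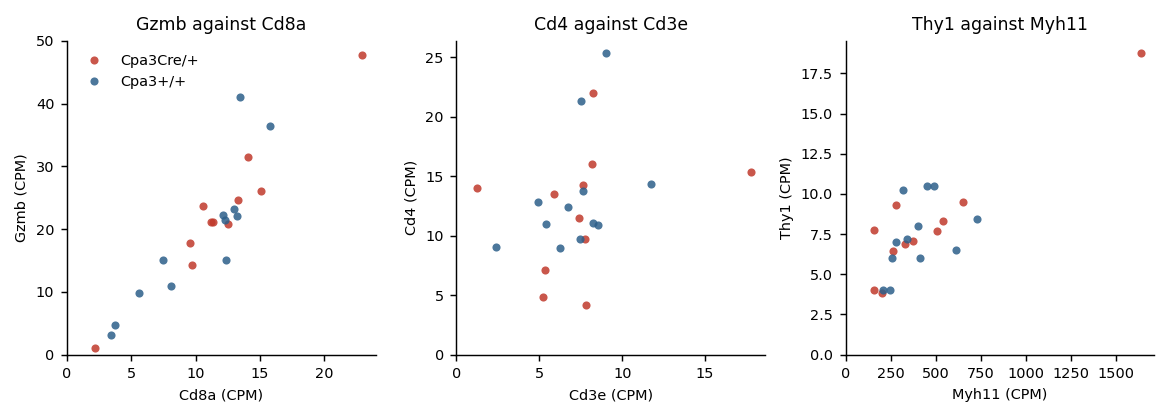
CPM of 3 pairs of genes in the 23 libraries, Cpa3Cre/+ in red and Cpa3+/+ in blue: Gzmb against Cd8a, Cd4 against Cd3e, and Thy1 against Myh11. Gzmb lies close to a line with Cd8a, Cd4 is spread at any level of Cd3e, and the library highest in Thy1, a naive Cpa3Cre/+ one, is also highest in Myh11.

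The genotype comparison asks whether mice labelled mast cell-deficient differ in these genes. Averaged over the 5 states with equal weight, no gene of the set was called different between Cpa3Cre/+ and Cpa3+/+ jejunum (edgeR quasi-likelihood test, 0 of 34 at an adjusted p under 0.05, where 0.029% of all genes tested passed, and 0 of 34 at an unadjusted p under 0.05, where 1.12% of all genes did; DESeq2 also called 0 of 34). The median log2 fold change was 0.10 for intraepithelial cytotoxic and 0.10 for general T cell genes, beside 0.03 for all genes. Log2 fold changes are Cpa3Cre/+ over Cpa3+/+ and are given with their standard error. The smallest p-values were those of Prf1 (0.60 ± 0.39, 95% interval -0.22 to 1.42, adjusted p = 1), Itgae (-0.24 ± 0.16, 95% interval -0.58 to 0.099, adjusted p = 1) and Thy1 (0.27 ± 0.21, 95% interval -0.18 to 0.72, adjusted p = 1). By size the largest after Prf1 were Tbx21 (0.35 ± 0.34, 95% interval -0.38 to 1.08, adjusted p = 1) and Cd3d (0.32 ± 0.28, 95% interval -0.28 to 0.91, adjusted p = 1). Among the roles, the median ran from -0.03 for surface glycoproteins to 0.21 for transcription factors. The intervals of all 34 genes included 0.

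**Figure D4:**
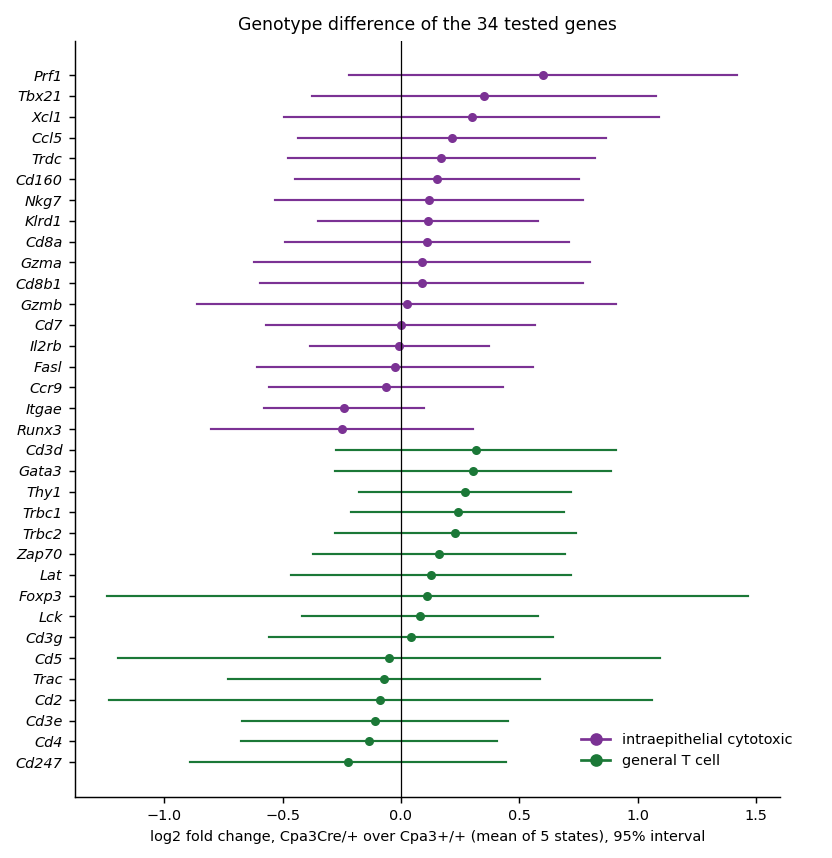
Log2 fold change of Cpa3Cre/+ over Cpa3+/+ jejunum, averaged over 5 states, for the 34 tested genes, with the 95% interval as a line; purple marks intraepithelial cytotoxic and green general T cell genes. Estimates run from -0.25 for Runx3 to 0.60 for Prf1, and every interval crosses 0.

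Within the states no member was called either, among all genes of which 0% passed in each. In naive mice 27 of 34 estimates were below 0, and 3 genes were lower and 1 higher at an unadjusted p under 0.05, where 5.34% of all genes were so in either direction and 1.22% were lower. They were Itgae (-0.97 ± 0.33, adjusted p = 0.9), Thy1 (1.12 ± 0.41, adjusted p = 0.9), Cd3e (-1.24 ± 0.57, adjusted p = 0.9) and Il2rb (-0.81 ± 0.38, adjusted p = 0.9), and the largest estimates were Prf1 (1.46 ± 0.81, adjusted p = 0.9), Cd3e and Gzmb (-1.13 ± 0.90, adjusted p = 0.903). The naive Cpa3Cre/+ group included the library with high smooth muscle and low epithelial markers, and the part of these in the values was not tested. Without it, the median of the intraepithelial cytotoxic genes was -0.04, against -0.66 with it. Without Cpa3+/+ naive replicate 3, a male library, 0 genes had an unadjusted p under 0.05. Without Cpa3Cre/+ naive replicate 2, also male, replicate 1 was the lone naive Cpa3Cre/+ library, and the count of genes passing is not given.

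In immunized mice 28 of 34 estimates were above 0 and 0 of 34 had an unadjusted p under 0.05 (0.951% of all genes). The values were Il2rb (0.84 ± 0.40, adjusted p = 1), Ccl5 (1.196 ± 0.66, adjusted p = 1) and Cd3d (1.06 ± 0.60, adjusted p = 1), with Prf1 (1.39 ± 0.83, adjusted p = 1) and Gzma (1.15 ± 0.74, adjusted p = 1) among the largest. The Il2rb, Ccl5 and Gzma estimates turned below 0 without Cpa3Cre/+ immunized replicate 2, at -0.12, -0.30 and -0.38. On day 1, 0 of 34 passed the unadjusted level (7.39% of all genes), with Cd8b1 (1.22 ± 0.66, adjusted p = 0.635), Thy1 (0.80 ± 0.44, adjusted p = 0.635), Cd5 (1.83 ± 1.07, adjusted p = 0.637) and Gzma (-1.01 ± 0.70, adjusted p = 0.657) as the leading values. Of the 14 follicle marker genes, 6 were higher at that level on day 1, with a median of 2.575. Of 13 macrophage and dendritic cell marker genes, 5 were, with a median of 0.97. The part of these markers in the values was not tested. Cd8b1 was lowest of all in Cpa3+/+ day 1 replicate 2, with 3 reads, and highest in Cpa3Cre/+ day 1 replicate 2. On day 3, 0 of 34 genes of the set passed the unadjusted level (1.55% of all genes), and 29 of 34 estimates were below 0. There the leading values were Itgae (-0.72 ± 0.37, adjusted p = 1), Xcl1 (-1.24 ± 0.83, adjusted p = 1), Cd160 (-0.87 ± 0.63, adjusted p = 1) and Foxp3 (1.04 ± 1.397, adjusted p = 1).

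On day 5 the effector genes had the highest median among the roles. All 7 effector genes had estimates above 0, with a median log2 fold change of 1.48 beside -0.03 for all genes. Of the 34 genes, 4 were higher at an unadjusted p under 0.05, which held for 9.26% of all genes in either direction and for 5.69% higher. They were Cd3d (1.59 ± 0.58, adjusted p = 0.524), Gzma (1.87 ± 0.71, adjusted p = 0.524), Ccl5 (1.48 ± 0.64, adjusted p = 0.524) and Cd8a (1.23 ± 0.58, adjusted p = 0.524), and Xcl1 (1.497 ± 0.78, adjusted p = 0.526) was among the largest estimates. The Cpa3+/+ day 5 group held 2 libraries, and 1 of them, replicate 1, was the lowest of all 23 in 7 of the 35 genes. Fewer genes had an unadjusted p under 0.05 without that library, and more had without the other Cpa3+/+ day 5 library. Each of these fits left 1 Cpa3+/+ day 5 library. Without Cpa3Cre/+ day 5 replicate 3, which was highest in epithelial markers, 1 gene had an unadjusted p under 0.05.

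Immunization was compared with the naive state. In Cpa3Cre/+ mice, most genes of the set had estimates above 0 for immunized over naive libraries, and none passed the adjusted test (0 of 34, and 0% of all genes). The 18 tested intraepithelial cytotoxic genes all had estimates above 0, as did 14 of 16 general T cell genes. The median log2 fold changes were 1.36 and 1.04, beside -0.05 for all genes. At an unadjusted p under 0.05, 15 of 34 genes were higher and 0 lower, 10 of them intraepithelial cytotoxic, while 13.1% of all genes passed in either direction and 4.5% were higher. The smallest p-values belonged to Itgae (1.55 ± 0.36, adjusted p = 0.303), Cd3e (2.09 ± 0.61, adjusted p = 0.303) and Il2rb (1.34 ± 0.41, adjusted p = 0.303), and the largest estimates to Cd3e, Gzmb (2.07 ± 1.003, adjusted p = 0.384) and Ccl5 (2.02 ± 0.70, adjusted p = 0.309). DESeq2 called Itgae (adjusted p = 0.0215) and Cd3e (adjusted p = 0.049), where it called 0.453% of all genes. In the same comparison 2 of the 14 follicle marker genes were higher at an unadjusted p under 0.05, with a median of 2.598. Of the 8 smooth muscle marker genes, 7 were lower at that level, with a median of -1.905. Higher at that level were 3 of 8 plasma cell and 1 of 8 epithelial marker genes, with medians of 1.092 and 0.659.

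The number of genes passing depended on single libraries, and the direction of the estimates less so. Each fit below kept Cpa3Cre/+ naive replicate 1 or Cpa3Cre/+ immunized replicate 2, or both. With neither, 1 library remains in each state, immunized replicate 1 and naive replicate 2. In that order they had 53.2 and 47.0 CPM of Gzma, 26.1 and 23.7 of Gzmb and 5.46 and 5.43 of Trdc. Cd3e was at 7.78 and 5.23 CPM and Itgae at 16.9 and 7.64. Without Cpa3Cre/+ immunized replicate 2, the library with 171 CPM of follicle markers, 28 of 34 estimates were above 0, 1 gene, Itgae, had an unadjusted p under 0.05, and the medians were 0.85 for intraepithelial cytotoxic and 0.49 for general T cell genes. Without Cpa3Cre/+ naive replicate 1, with the high smooth muscle markers, 33 of 34 were above 0 and 7 passed, of which 2, Itgae and Klrd1, also passed in the full data, with medians of 0.98 and 1.22. Leaving out Cpa3Cre/+ naive replicate 2 instead, a male library, left replicate 1 as the lone naive Cpa3Cre/+ library, assumed to vary like the other groups. The log2 fold change was then 3.40 for Cd3e and 1.58 for Itgae, against 2.09 and 1.55 in the full data. Without the 3 libraries highest in follicle markers, 30 of 34 were above 0 and 1 gene, Itgae, had an unadjusted p under 0.05, with medians of 0.81 and 0.52. Whether follicle tissue, smooth muscle or epithelial share accounts for any of these values was not tested.

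**Figure D5:**
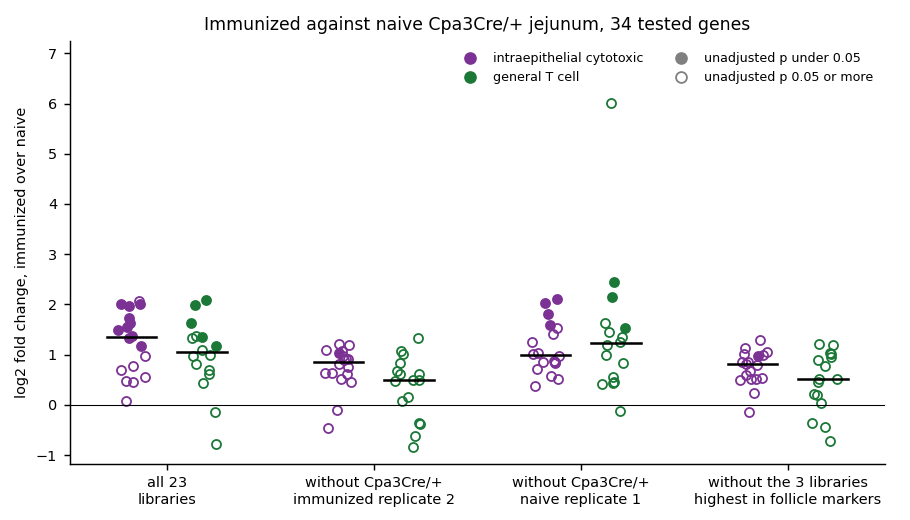
Log2 fold change of immunized over naive Cpa3Cre/+ jejunum for the 34 tested genes, in the full data and with libraries left out; filled dots have an unadjusted p under 0.05 and black bars are medians. Filled dots number 15 with all libraries, 1 without Cpa3Cre/+ immunized replicate 2, 7 without Cpa3Cre/+ naive replicate 1 and 1 without the 3 libraries highest in follicle markers; the dot at 6.01 is Foxp3, which had 0 counts in the naive library that remained.

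In Cpa3+/+ mice 26 of 34 estimates were above 0. None of the 34 genes passed (0% of all genes), and 0 had an unadjusted p under 0.05, where 1.69% of all genes did. The medians were 0.13 for intraepithelial cytotoxic and 0.37 for general T cell genes. Leading values were Cd247 (1.24 ± 0.64, adjusted p = 1), Cd4 (0.76 ± 0.51, adjusted p = 1), Lat (0.65 ± 0.55, adjusted p = 1), Foxp3 (1.08 ± 1.30, adjusted p = 1) and Cd5 (0.78 ± 1.003, adjusted p = 1). The difference between the genotypes in this step was not tested. Over both genotypes, 5 of 34 genes were higher at an unadjusted p under 0.05, beside 10.9% of all genes in either direction and 3.93% higher, and 0 were called (0% of all genes). They were led by Itgae (0.83 ± 0.24, adjusted p = 0.377), Cd247 (1.61 ± 0.49, adjusted p = 0.377) and Cd3e (1.07 ± 0.41, adjusted p = 0.389), with Ccl5 (1.08 ± 0.48, adjusted p = 0.424) and Foxp3 (1.22 ± 0.99, adjusted p = 0.658) among the largest. The number of genes passing the unadjusted level fell without Cpa3+/+ immunized replicate 1 and rose without Cpa3Cre/+ immunized replicate 1. Each of these fits left 1 library in a group. Over both genotypes, 12 of 14 follicle marker genes were higher at that level, with a median of 2.605. Of the 8 smooth muscle marker genes, 7 were lower, with a median of -1.113, and the part of these markers in the values was not tested.

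Challenge was compared with the immunized state, so that each of these comparisons shares the immunized libraries, including those with high follicle markers. In Cpa3Cre/+ mice the estimates were mostly below 0 on every day. On day 1, 25 of 34 were below 0, and 0 had an unadjusted p under 0.05 (2.12% of all genes; 0% were called). The leading values were Gzma (-1.36 ± 0.74, adjusted p = 0.991), Cd247 (-1.02 ± 0.63, adjusted p = 0.991), Itgae (-0.55 ± 0.34, adjusted p = 0.991) and Gzmb (-1.11 ± 0.91, adjusted p = 0.991). On day 3, 33 of 34 were below 0 and 4 were lower at an unadjusted p under 0.05 (4.31% of all genes in either direction, 1.73% lower; 0% were called). They were Itgae (-1.27 ± 0.35, adjusted p = 0.93), Il2rb (-0.97 ± 0.39, adjusted p = 0.93), Ccl5 (-1.61 ± 0.66, adjusted p = 0.93) and Lck (-1.13 ± 0.51, adjusted p = 0.93), and Cd247 (-1.29 ± 0.64, adjusted p = 0.93) and Cd2 (-1.59 ± 1.14, adjusted p = 0.93) were also among the largest estimates. On day 5, 31 of 34 were below 0 and 5 were lower at that level (9.74% of all genes in either direction, 5.37% lower; 0.0348% were called, none of the set). Leading values were Itgae (-0.94 ± 0.32, adjusted p = 0.331), Zap70 (-1.26 ± 0.50, adjusted p = 0.414), Il2rb (-0.88 ± 0.36, adjusted p = 0.442), Ccl5 (-1.39 ± 0.59, adjusted p = 0.462) and Cd2 (-1.36 ± 1.04, adjusted p = 0.761). These values depended on Cpa3Cre/+ immunized replicate 2. Without it 0 genes passed the unadjusted level on each day, and the median over the set was 0.17 on day 1, against -0.40 with it, -0.14 on day 3, against -0.91, and 0.14 on day 5, against -0.59. Without the other Cpa3Cre/+ immunized library, the log2 fold change was -0.94 for Itgae on day 1, against -0.55 with it. For Ccl5 on day 5 it was -1.97, against -1.39. The number passing on day 3 also fell without Cpa3Cre/+ day 3 replicate 1, which left 1 library in that group. Without Cpa3Cre/+ day 5 replicate 2, 1 gene was lower at the unadjusted level on day 5. Of the 14 follicle marker genes, 0 were lower at that level on day 1, 9 on day 3 and 10 on day 5, with medians of -0.23, -3.77 and -2.61. Of the 8 smooth muscle marker genes, 0 were higher at that level on day 1, 7 on day 3 and 0 on day 5. Their medians were 0.613, 1.625 and 0.339. The part of these markers in the values of the set was not tested.

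In Cpa3+/+ mice on day 1, the medians of the divisions had opposite signs, and the difference between the divisions was not tested. The median was 0.21 for intraepithelial cytotoxic and -0.57 for general T cell genes, and 1 gene, Klrd1, had an unadjusted p under 0.05 (5.37% of all genes; 0% were called). Its value was Klrd1 (0.96 ± 0.43, adjusted p = 0.847), beside Cd8b1 (-0.9996 ± 0.61, adjusted p = 0.847) and Cd5 (-1.59 ± 1.001, adjusted p = 0.847). Without Cpa3+/+ day 1 replicate 1 the intraepithelial cytotoxic median was -0.16, and without Cpa3+/+ immunized replicate 1 the general T cell median was 0.29. In the same comparison 12 of 14 follicle marker genes were lower at an unadjusted p under 0.05, with a median of -3.48, and their part in these values was not tested. On day 3, 0 of 34 had an unadjusted p under 0.05 (4.93% of all genes; 0% were called), with Cd4 (-0.87 ± 0.55, adjusted p = 0.85), Trbc1 (0.60 ± 0.45, adjusted p = 0.85), Ccr9 (-0.63 ± 0.49, adjusted p = 0.851), Prf1 (0.82 ± 0.81, adjusted p = 0.869) and Foxp3 (-1.27 ± 1.33, adjusted p = 0.872). On day 5, 30 of 34 estimates were below 0, and 2 genes were lower at an unadjusted p under 0.05 (9.29% of all genes in either direction, 4.79% lower; 0% were called). The values were Ccl5 (-1.67 ± 0.68, adjusted p = 0.462), Zap70 (-1.203 ± 0.55, adjusted p = 0.512), Lck (-1.05 ± 0.51, adjusted p = 0.551) and Cd160 (-1.202 ± 0.61, adjusted p = 0.567). Without Cpa3+/+ day 5 replicate 1 the median over the set was -0.03. Without the other Cpa3+/+ day 5 library it was -1.22, against -0.45 with both. Which genes passed the unadjusted level also depended on Cpa3+/+ immunized replicate 1.

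Over both genotypes, day 5 came nearest to a call. Estimates were below 0 for 33 of 34 genes, with a median of -0.52 beside 0.02 for all genes. At an unadjusted p under 0.05, 5 were lower, which held for 17.3% of all genes in either direction and 8.77% lower. None of the 34 passed the adjusted test, which 1.94% of all genes did. Leading values were Ccl5 (-1.53 ± 0.45, adjusted p = 0.0852), Zap70 (-1.23 ± 0.37, adjusted p = 0.0913), Itgae (-0.74 ± 0.24, adjusted p = 0.109) and Lck (-1.04 ± 0.35, adjusted p = 0.123). DESeq2 called Ccl5 (adjusted p = 0.0221) and Zap70 (adjusted p = 0.0277), where it called 5.55% of all genes. Without the 3 libraries highest in follicle markers the median over the set was 0.01 and 1 gene had an unadjusted p under 0.05, as without Cpa3Cre/+ immunized replicate 2 alone. More genes passed that level without Cpa3+/+ day 5 replicate 2, which left 1 Cpa3+/+ day 5 library.

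On day 1 over both genotypes, 0 genes passed the unadjusted level (3.16% of all genes; 0% were called), with Cd247 (-0.87 ± 0.43, adjusted p = 1), Trac (-0.89 ± 0.45, adjusted p = 1) and Lck (-0.58 ± 0.34, adjusted p = 1). On day 3, 1 gene did (9.58% of all genes; 0% were called), which was Itgae (-0.68 ± 0.25, adjusted p = 0.49). The other leading values were Lck (-0.74 ± 0.36, adjusted p = 0.519), Ccr9 (-0.66 ± 0.35, adjusted p = 0.53), Trac (-0.89 ± 0.47, adjusted p = 0.536), Cd247 (-0.80 ± 0.44, adjusted p = 0.548) and Cd2 (-1.08 ± 0.78, adjusted p = 0.646). For the mean of the 3 days, 6 of 34 genes were lower at an unadjusted p under 0.05 (9.82% of all genes in either direction, 4.62% lower; 0.0116% were called, none of the set). They were led by Itgae (-0.57 ± 0.19, adjusted p = 0.381), Lck (-0.78 ± 0.27, adjusted p = 0.41) and Trac (-0.83 ± 0.36, adjusted p = 0.489), and Ccl5 (-0.80 ± 0.35, adjusted p = 0.493) and Cd2 (-0.82 ± 0.60, adjusted p = 0.686) were among the largest. Trac, Cd2 and Ccl5 turned above 0 without the 3 follicle-rich libraries, at 0.09, 2.74 and 0.10, where Cd2 was at 0 in the Cpa3+/+ immunized library that remained, so that its fitted value is no bound. Fewer genes passed the unadjusted level for this mean without Cpa3Cre/+ immunized replicate 2, Cpa3+/+ immunized replicate 1 or Cpa3Cre/+ day 3 replicate 1. More passed without Cpa3Cre/+ immunized replicate 1 or Cpa3+/+ day 5 replicate 2. Each of these fits left 1 library in a group.

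The challenge response was then compared between the genotypes, as the response in Cpa3Cre/+ minus that in Cpa3+/+ mice. None of the 34 genes was called on any day (0% of all genes each). On day 1, 1 gene had an unadjusted p under 0.05 (4.07% of all genes), Gzma (-2.16 ± 1.002, 95% interval -4.27 to -0.053, adjusted p = 0.845). Beside it stood Cd8b1 (1.65 ± 0.89, adjusted p = 0.845), Il2rb (-0.92 ± 0.53, adjusted p = 0.845) and Cd5 (2.24 ± 1.43, adjusted p = 0.845). On day 3, 2 genes did (1.42% of all genes), Itgae (-1.183 ± 0.49, 95% interval -2.21 to -0.15, adjusted p = 1) and Ccl5 (-1.95 ± 0.92, 95% interval -3.89 to -0.012, adjusted p = 1), followed by Il2rb (-1.12 ± 0.56, adjusted p = 1), Prf1 (-2.06 ± 1.10, adjusted p = 1) and Xcl1 (-1.72 ± 1.11, adjusted p = 1). On day 5, 0 did (1.28% of all genes), with Cd160 (0.91 ± 0.82, 95% interval -0.82 to 2.64, adjusted p = 1), Il2rb (-0.52 ± 0.54, adjusted p = 1), Runx3 (-0.72 ± 0.76, adjusted p = 1), Prf1 (-1.04 ± 1.12, adjusted p = 1), Xcl1 (1.01 ± 1.12, adjusted p = 1) and Cd2 (-0.93 ± 1.495, adjusted p = 1). The standard errors, with a median of 0.83 over the set on day 5, set the width of these intervals.

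Other genes linked to these cells were examined in lists also chosen with earlier results known. Of 30 tested genes of T cell signalling, costimulation and migration, 26 further cytotoxic and gamma delta genes and 21 genes of epithelial partners of intraepithelial lymphocytes, 0 were called in any of the 22 comparisons. Between the genotypes on average, the smallest p-values were those of Tnfrsf4 (0.44 ± 0.31, adjusted p = 1) and Icos (0.61 ± 0.42, adjusted p = 1), both costimulatory receptor genes, Klrg1 (0.74 ± 0.33, adjusted p = 1), an inhibitory receptor gene, and H2-T22 (0.20 ± 0.11, adjusted p = 1), a nonclassical class I gene. On day 5 the genotypes gave Tcrg-C2 (1.59 ± 0.49, adjusted p = 0.524), a gamma constant region gene, H2-T22 (0.61 ± 0.21, adjusted p = 0.524), Il15 (0.75 ± 0.32, adjusted p = 0.524), the gene of the cytokine that sustains these cells, and Il18 (0.76 ± 0.34, adjusted p = 0.524). Immunized against naive Cpa3Cre/+ libraries gave Ikzf3 (1.29 ± 0.49, adjusted p = 0.316), Itga1 (-1.17 ± 0.42, adjusted p = 0.311), an integrin alpha 1 gene, Tcrg-C2 (1.55 ± 0.52, adjusted p = 0.309) and Btnl1 (1.02 ± 0.46, adjusted p = 0.364), a butyrophilin-like gene of gut epithelium. Day 5 against immunized over both genotypes gave Ikzf3 (-1.24 ± 0.32, adjusted p = 0.0576) and Ccr7 (-2.16 ± 0.78, adjusted p = 0.153), a lymph node homing receptor gene, and Jaml (0.42 ± 0.16, adjusted p = 0.183), the gene of a junctional adhesion molecule. Both Ikzf3 and Ccr7 were highest of all 23 libraries in the follicle-rich immunized ones, with 10.6 CPM of Ikzf3 and 2.06 CPM of Ccr7 in Cpa3Cre/+ immunized replicate 2, and 15.7 CPM of Ikzf3 and 2.62 CPM of Ccr7 in Cpa3+/+ immunized replicate 1. Of the 14 follicle marker genes, 13 were lower at an unadjusted p under 0.05 in this day 5 comparison, 1 of them called, with a median of -2.63. Their part in the values of Ikzf3 and Ccr7 was not tested.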

How the data were processed

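Total RNA of whole jejunum was sequenced in 23 libraries made with a stranded TruSeq RNA kit, per the labels' protocols. The deposited values are raw read counts per Ensembl gene, and per the submitters' processing notes STAR, featureCounts from Subread 1.5.1 and the builds mm10 and GRCm38 were used. For the STAR version, annotation release and strand setting, the sources used here give nothing. Gene symbols came from a GRCm38 annotation and matched 55141 of 55487 identifiers; the rest held 0.0305% of reads.

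Counts were fitted with edgeR 4.0.16 (R 4.3.3, limma 3.58.1), as robust quasi-likelihood tests in 1 model that held a mean for each of 10 groups and a sex term, with TMM scaling and filtering by group. Benjamini-Hochberg adjustment ran over 17236 genes, at a threshold of 0.05. The biological coefficient of variation was 28.6%. Standard errors were derived from the fold change and its F statistic, and 95% intervals from these. CPM are reads per M reads (megareads) of the library total times its TMM factor. The labels do not say that libraries are separate animals, so p-values measure the spread between libraries. Replicate libraries differed by far more than counting noise (lowest chi-square per gene 13.6). Named genes were, in each comparison, the 3 of smallest p and the 3 of largest absolute log2 fold change, and, by library, the 3 of highest mean CPM in each role with Cd4, Cd8a, Trac, Trdc, Foxp3 and Gata3; of each other list at most 4 of smallest p. The members, lists and tests were chosen with earlier results of these data known. DESeq2 1.42.0, DESeq2 scaling, no filter, no sex term, females only, a replicate block and leaving out libraries were tried. For fits that left out libraries, the share of all genes passing is not given here. The scripts were tested on simulated data.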

Additional observations from a re-analysis of the deposited data

How the results depend on the processing

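Under another scaling (DESeq2 size factors), without the sex covariate and with the replicate block, 0 of the 34 genes were called in all 22 comparisons. Replicate numbers did not pair the libraries: the differences between replicates 1 and 2 correlated at -0.311 to 0.423 over 45 pairs of groups, 10 of them above 0.1. Without the low-count filter, where 32067 genes were tested, calls numbered 1 (0.518% of all genes) for genotype in naive mice, 3 (1.45%) for genotype on day 5, 1 (0.957%) for day 5 over immunized Cpa3+/+ and 10 (2.42%) for immunized over naive Cpa3Cre/+. They numbered 1 each for days 1, 3 and 5 over immunized Cpa3Cre/+ (0.203%, 0.574% and 1.06% of all genes) and 1 (0.63%) for the difference of the day 1 response. In both genotypes together they were 7 (1.8%) for immunized over naive, 4 (2.83%) for day 5 over immunized and 1 (0.898%) for the mean of challenge days. The DESeq2 test called 2 (0.453%) for immunized over naive Cpa3Cre/+ and 2 (5.55%) for day 5 over immunized in both genotypes. The fit on female libraries alone left 1 naive and 1 immunized Cpa3Cre/+ library. These were naive replicate 1, high in smooth muscle markers, and immunized replicate 2, high in follicle markers. Cd3e there had a log2 fold change of 3.865 for immunized over naive Cpa3Cre/+ and 1.996 for immunized over naive in both genotypes. With each library left out in turn, calls ran from 0 to 13 for immunized over naive Cpa3Cre/+, from 0 to 4 for immunized over naive and from 0 to 2 for day 5 over immunized, the last pair in both genotypes. The highest counts for immunized over naive, in Cpa3Cre/+ and in both genotypes, came from the fit without Cpa3Cre/+ naive replicate 2. That fit left 1 naive Cpa3Cre/+ library, replicate 1, high in smooth muscle markers. The share of all genes called with a library left out is not given. These counts therefore cannot be set against other genes and show nothing particular to the set. The cause of the changes in calls was not tested.

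Of 101 named log2 fold changes, estimates changed sign in 43 cases over 8 alternatives and 22 cases over 23 fits that left out 1 library. In the genotype average the ranges were Tbx21 -0.030 to 0.60. In genotype in immunized mice the ranges were Il2rb -0.12 to 1.21, Gzma -0.38 to 1.69 and Ccl5 -0.30 to 1.73. In immunized over naive Cpa3+/+ the ranges were Cd5 -0.81 to 1.52 and Foxp3 -0.78 to 1.98. In day 3 over immunized Cpa3+/+ the ranges were Prf1 -0.17 to 1.72 and Foxp3 -2.07 to 0.55. In day 1 over immunized Cpa3Cre/+ the ranges were Itgae -0.94 to 0.035 and Gzmb -2.21 to 0.34. In day 5 over immunized Cpa3Cre/+ the ranges were Il2rb -1.30 to 0.024, Ccl5 -1.97 to 0.044 and Cd2 -1.98 to 0.41. In the difference of the day 5 response the ranges were Il2rb -0.91 to 0.42, Prf1 -1.95 to 0.65, Runx3 -1.21 to 0.20 and Cd2 -7.57 to 0.87. In day 3 over immunized in both genotypes the ranges were Cd2 -1.59 to 2.22. In the mean of challenge days over immunized the ranges were Cd2 -1.32 to 2.49. Where Cpa3+/+ immunized replicate 2 was the only one left, Cd2 was at 0 there and its fitted value is no bound. The sign changes over the 8 alternatives all came from the pair of settings added after the data were seen. Without the 3 libraries highest in follicle markers, the log2 fold changes of opposite sign were as follows. For genotype in immunized mice they were Il2rb -0.33, Gzma -0.65 and Ccl5 -0.22. For immunized over naive Cpa3+/+ they were Cd5 -0.73 and Foxp3 -1.005. For day 3 over immunized Cpa3+/+ they were Foxp3 0.55. For day 1 over immunized Cpa3Cre/+ they were Itgae 0.32, Gzma 1.04, Gzmb 1.60 and Cd247 0.55. For day 5 over immunized Cpa3Cre/+ they were Il2rb 0.26 and Ccl5 0.24. For the difference of the day 1 response they were Il2rb 0.46 and Gzma 0.063. For the difference of the day 5 response they were Il2rb 0.62. For day 1 over immunized in both genotypes they were Cd247 0.35, Trac 0.063 and Lck 0.15. For day 3 over immunized in both genotypes they were Cd247 0.055, Cd2 2.79 and Lck 0.012. For the mean of challenge days over immunized they were Ccl5 0.10, Trac 0.094 and Cd2 2.74. Without the library highest in muscle markers as well, these were the values. For the genotype average they were Tbx21 -0.34. For genotype in immunized mice they were Il2rb -0.26. For immunized over naive Cpa3+/+ they were Cd5 -0.77 and Foxp3 -0.77. For day 3 over immunized Cpa3+/+ they were Foxp3 0.53. For day 1 over immunized Cpa3Cre/+ they were Itgae 0.42, Gzma 0.32, Gzmb 0.80 and Cd247 0.066. For day 5 over immunized Cpa3Cre/+ they were Il2rb 0.16. For the difference of the day 1 response they were Il2rb 0.40. For the difference of the day 5 response they were Il2rb 0.56. For day 1 over immunized in both genotypes they were Cd247 0.098, Trac 0.19 and Lck 0.17. For day 3 over immunized in both genotypes they were Cd2 2.79 and Lck 0.0052. For the mean of challenge days over immunized they were Trac 0.19 and Cd2 2.75. Depth limits the low genes: 138 reads over all libraries was the smallest total of a tested gene, and most groups held 2 libraries.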

Other observations

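Gamma delta T cells also express gamma constant region genes, which were chosen for description after their values were seen. Tcrg-C2 had 1.17 and 2.51 CPM in naive Cpa3Cre/+ libraries, 3.71 and 7.33 when immunized, 3.53 and 2.57 on day 1, 3.74 and 3.73 on day 3 and 3.87, 4.21 and 5.64 on day 5. Cpa3+/+ libraries held Tcrg-C2 at 1.65, 4.73 and 3.43 CPM when naive, 3.73 and 3.32 when immunized, 6.15, 2.89 and 3.73 on day 1, 3.75 and 3.7 on day 3 and 1.13 and 1.87 on day 5. The highest library was Cpa3Cre/+ immunized replicate 2, as for Trdc.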
